A study of Homo sapiens with 12 samples.

Results

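The SOCS and CISH family comprises SOCS1, SOCS2, SOCS3, SOCS4, SOCS5, SOCS6, SOCS7 and CISH, feedback inhibitors of cytokine signalling. The members were taken by gene symbol from a table of 16383 genes. All 8 were listed, and all 8 had a mean of at least 10 normalized counts, the minimum for testing. Poly(A) RNA was sequenced from IMR90, a human lung fibroblast cell line of wild-type genotype, in 4 groups of 3 libraries. Proliferating cells had no treatment. The other groups had received 20 Gy of ionizing radiation within 10 min and were collected on day 11, when the labels call them senescent. They were given DMSO, 2 µM palbociclib, which inhibits the cell cycle kinases CDK4 and CDK6, or 2 µM ruxolitinib, which inhibits the Janus kinases JAK1 and JAK2. The inhibitors were added on days 4, 6, 8 and 10. No proliferating cells received DMSO or an inhibitor, so DMSO and irradiation cannot be told apart in comparisons with that group. All cells belong to 1 line, and the labels do not say whether the libraries came from separate cultures. The p-values therefore measure the spread between these libraries, which may be technical.

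SOCS proteins bind phosphorylated tyrosines through an SH2 domain and recruit elongins and a cullin ubiquitin ligase through the SOCS box at their carboxyl end. SOCS1 and SOCS3 also block the catalytic site of Janus kinases through a kinase inhibitory region. The genes of SOCS1, SOCS2, SOCS3 and CISH are themselves transcribed in response to STAT factors, which closes a negative feedback loop. In fibroblasts, interferons are known to induce SOCS1, and cytokines that signal through gp130, such as IL-6 and LIF, are known to induce SOCS3. CISH and SOCS2 are best known as STAT5 targets that restrain growth hormone, prolactin and related receptors. SOCS4 to SOCS7 are better known for receptor tyrosine kinases and their adaptors.

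Promoter sequence of 2 members is shown because it holds letters that match elements through which STAT factors can act. Sequences are the 250 bases before the RefSeq start site (GRCh38.p14), written 5′ to 3′ on the gene's strand. The RefSeq promoter table had entries for SOCS1, SOCS3, CISH, SOCS4 and SOCS6, and none for SOCS2, SOCS5 and SOCS7. Capitals in CISH (chr3:50611775-50612024, minus strand) mark 4 matches to the gamma-activated site TTCNNNGAA, which STAT dimers bind. Capitals in SOCS1 (chr16:11256205-11256454, minus strand) mark a match to the core of the interferon-stimulated response element, a pair of GAAA runs with 2 bases between them.
CISH promoter: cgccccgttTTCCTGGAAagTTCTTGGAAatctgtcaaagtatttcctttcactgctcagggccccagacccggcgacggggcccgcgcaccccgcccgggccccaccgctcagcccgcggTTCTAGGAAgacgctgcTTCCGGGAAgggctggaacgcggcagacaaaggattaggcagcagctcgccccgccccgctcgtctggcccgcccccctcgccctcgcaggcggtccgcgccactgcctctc
SOCS1 promoter: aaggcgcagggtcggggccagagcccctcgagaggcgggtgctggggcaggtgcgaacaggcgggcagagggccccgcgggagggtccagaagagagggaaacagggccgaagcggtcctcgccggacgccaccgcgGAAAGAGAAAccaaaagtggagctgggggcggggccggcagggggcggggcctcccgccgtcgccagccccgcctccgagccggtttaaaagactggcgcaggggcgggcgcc

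The CISH matches lie at -241 to -233, -230 to -222, -129 to -121 and -112 to -104 relative to the start site, in 2 pairs of neighbours. Both strands were searched. Of 35116 RefSeq promoter windows of this length, 2306 (6.57%) held at least 1 gamma-activated site and 5 (0.0142%) held 4 or more. The SOCS1 match lies at -113 to -104, and 1061 windows (3.02%) held the interferon element. The elements did not overlap each other. Neither motif matched in the windows of SOCS3, SOCS4 and SOCS6. The SOCS3 window ends at a RefSeq start that lies 848 bases upstream of the GENCODE v44 start of that gene. The bases between these starts were not searched, so the result does not cover sequence directly before the GENCODE start. A match describes letters, not binding.

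The deposited values were normalized counts from libraries of 14106799 to 21762412 recovered reads over the listed genes. Palbociclib library A120 and proliferating library A126 stood apart from their replicates: chi-square per degree of freedom over genes was 13.0 to 23.9 for pairs with A120 and 11.5 to 16.4 for pairs with A126, against 1.94 to 6.18 for the other pairs. Results that change without either of them are given both ways. All 10 fibroblast markers had a group mean of at least 10 in every group. Summed counts of epithelial markers reached at most 45.4 and of leukocyte markers at most 40.6 in any library. The 5 endothelial markers summed to 1681 to 1949 in proliferating libraries, 2389 to 2554 with DMSO, 3501 to 4380.1 with palbociclib and 2247 to 2254 with ruxolitinib, nearly all of it TEK. The defining marker CDH5 had a mean of at most 1.16 in any group. The part of these markers in the results was not tested. Normalized counts of the proliferation gene MKI67 averaged 13062 in proliferating cells and, among irradiated cells, 1011 with DMSO, 700.2 with ruxolitinib and 82.5 with palbociclib. In bulk RNA, fewer cells that express a gene and less RNA per cell cannot be told apart.

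**Figure D1:**
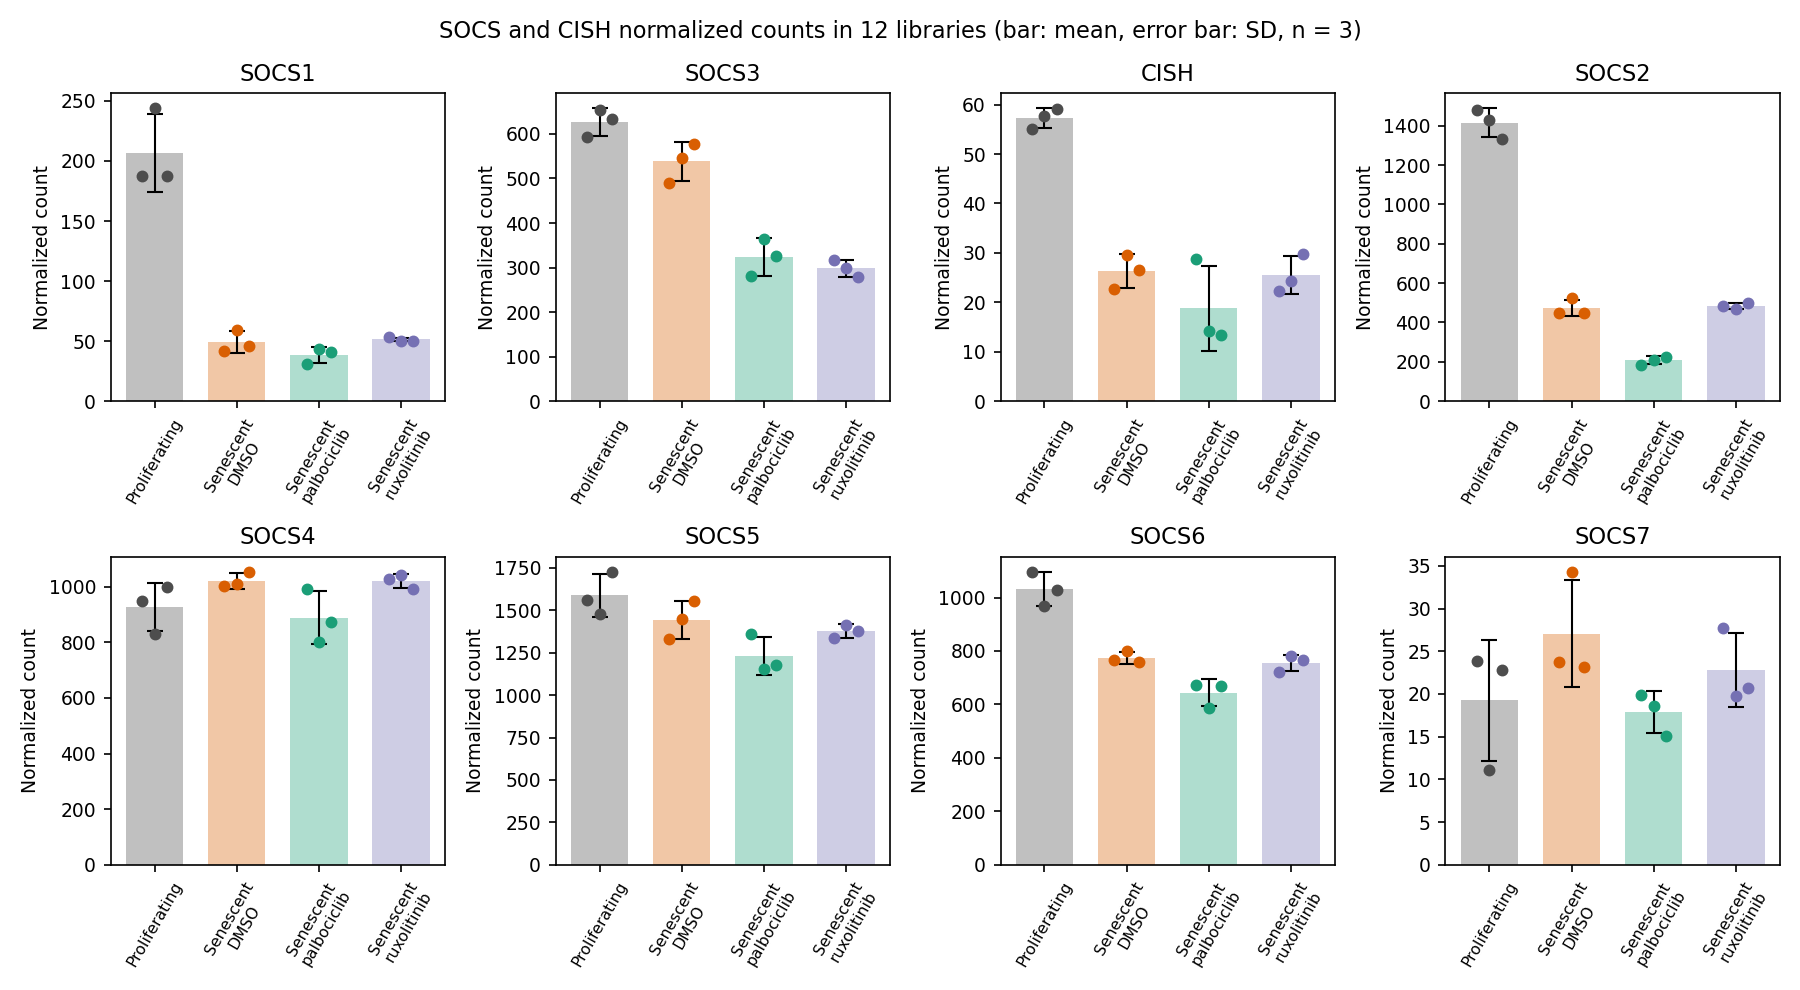
Normalized counts of the 8 family members in each of the 12 libraries (points), with the group mean (bar) and SD (error bar, n = 3). The y axes start at 0 and differ between panels. SOCS1, CISH and SOCS2 are highest in the proliferating libraries, SOCS2 falls again with palbociclib, and SOCS3 is lower with either inhibitor than with DMSO.

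Irradiated DMSO cells had less RNA of the 4 members SOCS1, SOCS2, CISH and SOCS6 than proliferating cells in the limma fit and in each alternative analysis that tested them. SOCS1 fell to 23.7% of its proliferating level, SOCS2 to 33.5%, CISH to 46.0% and SOCS6 to 75.1%. SOCS3 was also called lower, at 85.8%, but this call was lost in most alternatives. In all, 5 of 8 members were called lower and 0 higher at an adjusted p under 0.05. The 0 higher depended on the analysis: SOCS4 was called higher in 7 of 19 alternatives and SOCS7 in 1 of 18, the same total. Among the 11242 tested genes, 72.4% were called in this comparison, 39.3% lower and 33.0% higher. The median log2 fold change of the family was -0.32, against -0.05 over all tested genes.

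With palbociclib, SOCS2 fell to 43.9% of its DMSO level, SOCS3 to 60.1% and SOCS6 to 83.1%. With ruxolitinib, SOCS3 fell to 55.4% of its DMSO level and was the 1 member called. Against DMSO, 5 of 8 members were called lower with palbociclib and 0 higher, where 48.3% of all tested genes were called (22.3% lower, 26.0% higher). The count was 3 without library A117, A118, A120 or A121 and 6 without A119. With ruxolitinib 1 of 8 was called lower and 0 higher, where 4.52% of all genes were called (3.42% lower, 1.10% higher). Family medians were -0.44 with palbociclib and -0.04 with ruxolitinib, against 0.02 and -0.00 over all tested genes. These comparisons share the DMSO libraries with each other and with the comparison above.

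SOCS1 and SOCS3 are the members that inhibit Janus kinases directly. SOCS1 (chr16:11254417-11256204, minus strand, 1 exon, GRCh38) had normalized counts of 188, 244 and 188 in the proliferating libraries and 41.6, 59.2 and 46.3 in the DMSO libraries. It had 31.0, 43.8 and 40.9 with palbociclib and 53.2, 50.4 and 50.5 with ruxolitinib. Every proliferating library was above every irradiated library, and the irradiated groups lay close together. SOCS1 fell by 2.06 on the log2 scale with irradiation and DMSO (SE 0.18, limma adjusted p = 3.62e-08).

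No inhibitor difference of SOCS1 from DMSO passed the test. The log2 difference was -0.34 with palbociclib (95% interval -0.71 to 0.04, limma adjusted p = 0.126) and 0.08 with ruxolitinib (-0.29 to 0.46, limma adjusted p = 0.886). The palbociclib value was called at the same total (-0.56, limma adjusted p = 0.0150) and was 0.07 after quantile normalization. These libraries held 28 to 69 reads of SOCS1 per irradiated library, and the intervals are wide at this depth. Whether the match to the interferon element printed above acts on SOCS1 in these cells was not tested.

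SOCS3 (chr17:78356778-78360077, minus strand, 2 exon blocks) binds gp130 and blocks the kinase attached to it. Its normalized counts were 594, 654 and 633 in proliferating libraries and 491, 547 and 577 with DMSO. They were 281, 365 and 325 with palbociclib and 317, 299 and 279 with ruxolitinib. Both inhibitor groups lay below every DMSO and proliferating library, and they overlapped each other.

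SOCS3 fell by 0.85 on the log2 scale with ruxolitinib (SE 0.10, limma adjusted p = 3.19e-05). It fell by 0.74 with palbociclib (SE 0.10, limma adjusted p = 1.60e-05). Both calls held in 19 of 19 alternatives. Palbociclib and ruxolitinib did not differ by the test (0.11 log2, 95% interval -0.09 to 0.31, limma adjusted p = 0.376), and the sign turned to -0.09 with libraries scaled to the same total.

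The step from proliferating cells to DMSO was small for SOCS3, and it depended on the analysis. SOCS3 fell by 0.22 (SE 0.10, limma adjusted p = 0.0477), with no overlap between the groups. The adjusted p was 0.124 in edgeR and 0.137 in DESeq2 on recovered reads, and the difference was 0.01 with libraries scaled to the same total. It also lost the call without library A126 (-0.19, limma adjusted p = 0.119), without A127 (-0.21, adjusted p = 0.0973), without A116 (-0.16, adjusted p = 0.197) and without A117 (-0.23, adjusted p = 0.0752).

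CISH and SOCS2 are the STAT5-induced members. CISH (chr3:50606489-50611774, minus strand, 2 exon blocks), whose promoter carries the 4 gamma-activated site matches, was among the lowest members, with 13 to 62 reads per library. Its normalized counts were 55.0, 57.7 and 59.0 in proliferating libraries, 22.8, 29.6 and 26.6 with DMSO, 28.8, 14.2 and 13.3 with palbociclib, and 22.4, 24.3 and 29.8 with ruxolitinib. The proliferating libraries lay far above all others. Palbociclib library A119 lay among the DMSO and ruxolitinib values while the other two lay below them.

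CISH fell by 1.10 on the log2 scale with irradiation and DMSO (SE 0.26, limma adjusted p = 0.00148). With palbociclib it differed from DMSO by -0.54 (95% interval -1.10 to 0.02, limma adjusted p = 0.103). Without library A119 that difference was -0.88 and was called (limma adjusted p = 0.00580), whereas after quantile normalization it was -0.02. With ruxolitinib the difference was -0.05 (-0.61 to 0.51, limma adjusted p = 0.962). CISH shares 4.31% of its exon bases with MAPKAPK3 on the opposite strand, and whether counting used strand is not given in the sources used here, so some of its reads may belong to that gene.

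SOCS2 (chr12:93569814-93583487, plus strand, 6 exon blocks), an inhibitor of growth hormone receptor signalling, had the widest range of the family. Its normalized counts were 1481, 1431 and 1335 in proliferating libraries and 450.4, 523 and 449 with DMSO. They were 186, 211 and 227 with palbociclib and 481, 467 and 501 with ruxolitinib. The libraries formed 3 levels that stood clear of each other: proliferating cells, then DMSO and ruxolitinib together, then palbociclib.

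SOCS2 fell by 1.58 on the log2 scale with irradiation and DMSO (SE 0.08, limma adjusted p = 1.43e-10) and by another 1.19 with palbociclib (SE 0.08, limma adjusted p = 2.68e-08). Palbociclib cells thus held 14.7% of the proliferating level. With ruxolitinib SOCS2 differed from DMSO by 0.03, with a 95% interval from -0.15 to 0.21 (limma adjusted p = 0.920). The palbociclib group was 1.22 below the ruxolitinib group (-1.22, SE 0.08, limma adjusted p = 3.03e-08). The call between proliferating and DMSO cells and both palbociclib calls held in 19 of 19 alternatives. MKI67 was likewise highest in proliferating cells and lowest with palbociclib, and its part in the SOCS2 difference was not tested. SOCS2 shares 4.28% of its exon bases with the antisense gene SOCS2-AS1.

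SOCS4 and SOCS5 are linked in particular to the epidermal growth factor receptor. SOCS4 (chr14:55027230-55049489, plus strand) had 947, 831 and 999.9 normalized counts in proliferating libraries, 1002, 1009.8 and 1055 with DMSO, 993, 802 and 873 with palbociclib and 1027, 1041 and 992 with ruxolitinib. All 12 libraries lay within a narrow band. SOCS4 was called lower with palbociclib than with DMSO (-0.21, SE 0.08, limma adjusted p = 0.0437), without overlap. This call was lost in 9 of 19 alternatives, among them those without A116, A117, A118, A120 or A121, in which the difference ranged from -0.22 to -0.13.

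With DMSO, SOCS4 was 0.15 above proliferating cells, which missed the threshold (SE 0.08, limma adjusted p = 0.110). It was called higher at the same total (0.38, limma adjusted p = 0.000339), at the same upper quartile (0.31, adjusted p = 0.00197), after quantile normalization (0.31, adjusted p = 0.00205), in edgeR (0.20, adjusted p = 0.0264), in DESeq2 (0.20, adjusted p = 0.0279) and without library A127 (0.20, limma adjusted p = 0.0449). Ruxolitinib and DMSO differed by -0.00 (95% interval -0.17 to 0.17).

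SOCS5 (chr2:46698952-46780245, plus strand) had 1559.5, 1481 and 1728 normalized counts in proliferating libraries, 1328, 1451 and 1554 with DMSO, 1361, 1154 and 1179.6 with palbociclib and 1338, 1416 and 1378 with ruxolitinib. Neighbouring groups overlapped throughout. SOCS5 was called lower with palbociclib than with DMSO (-0.23, SE 0.08, limma adjusted p = 0.0213). The call was lost without A117 (-0.23, adjusted p = 0.0573), A118 (-0.18, adjusted p = 0.107), A120 (-0.19, adjusted p = 0.0684) or A121 (-0.20, adjusted p = 0.0794). The difference between DMSO and proliferating cells was -0.14 (limma adjusted p = 0.118) and turned to 0.09 at the same total, 0.02 at the same upper quartile and 0.01 after quantile normalization. Without library A126 it was -0.19 and was called (limma adjusted p = 0.0473).

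SOCS6 (chr18:70289045-70330199, plus strand) acts on KIT and on insulin receptor substrates. Its normalized counts were 1097, 968 and 1029 in proliferating libraries, 767, 799 and 757 with DMSO, 674, 587 and 671 with palbociclib and 722, 781 and 764 with ruxolitinib. The proliferating libraries lay above all others and the palbociclib libraries below all others, with DMSO and ruxolitinib overlapping in between. SOCS6 fell by 0.41 with irradiation and DMSO (SE 0.07, limma adjusted p = 6.58e-05) and by 0.27 more with palbociclib (SE 0.07, limma adjusted p = 0.00501). Both calls held in every alternative at the 0.05 threshold, and the log2 difference between DMSO and proliferating cells was -0.18 at the smallest, at the same total. Against ruxolitinib the palbociclib group was lower by -0.23 (limma adjusted p = 0.0143), a call lost without A120 (-0.17, adjusted p = 0.0595) or A123 (-0.21, adjusted p = 0.0604).

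SOCS7 (chr17:38351844-38405593, plus strand), an inhibitor of insulin signalling and a partner of the adaptor NCK1, had the fewest reads, 10 to 36 per library. Its normalized counts were 23.9, 11.1 and 22.9 in proliferating libraries, 23.8, 34.3 and 23.1 with DMSO, 19.9, 18.6 and 15.1 with palbociclib and 27.8, 19.8 and 20.8 with ruxolitinib. Library A126 was the lowest of all 12 and DMSO library A117 the highest. No comparison of SOCS7 passed the threshold. The difference was 0.52 between DMSO and proliferating cells (95% interval -0.12 to 1.16, limma adjusted p = 0.133) and -0.56 between palbociclib and DMSO (-1.20 to 0.08, limma adjusted p = 0.140), and each of these was called at the same total (0.74, adjusted p = 0.0356, and -0.78, adjusted p = 0.0381).

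**Figure D2:**
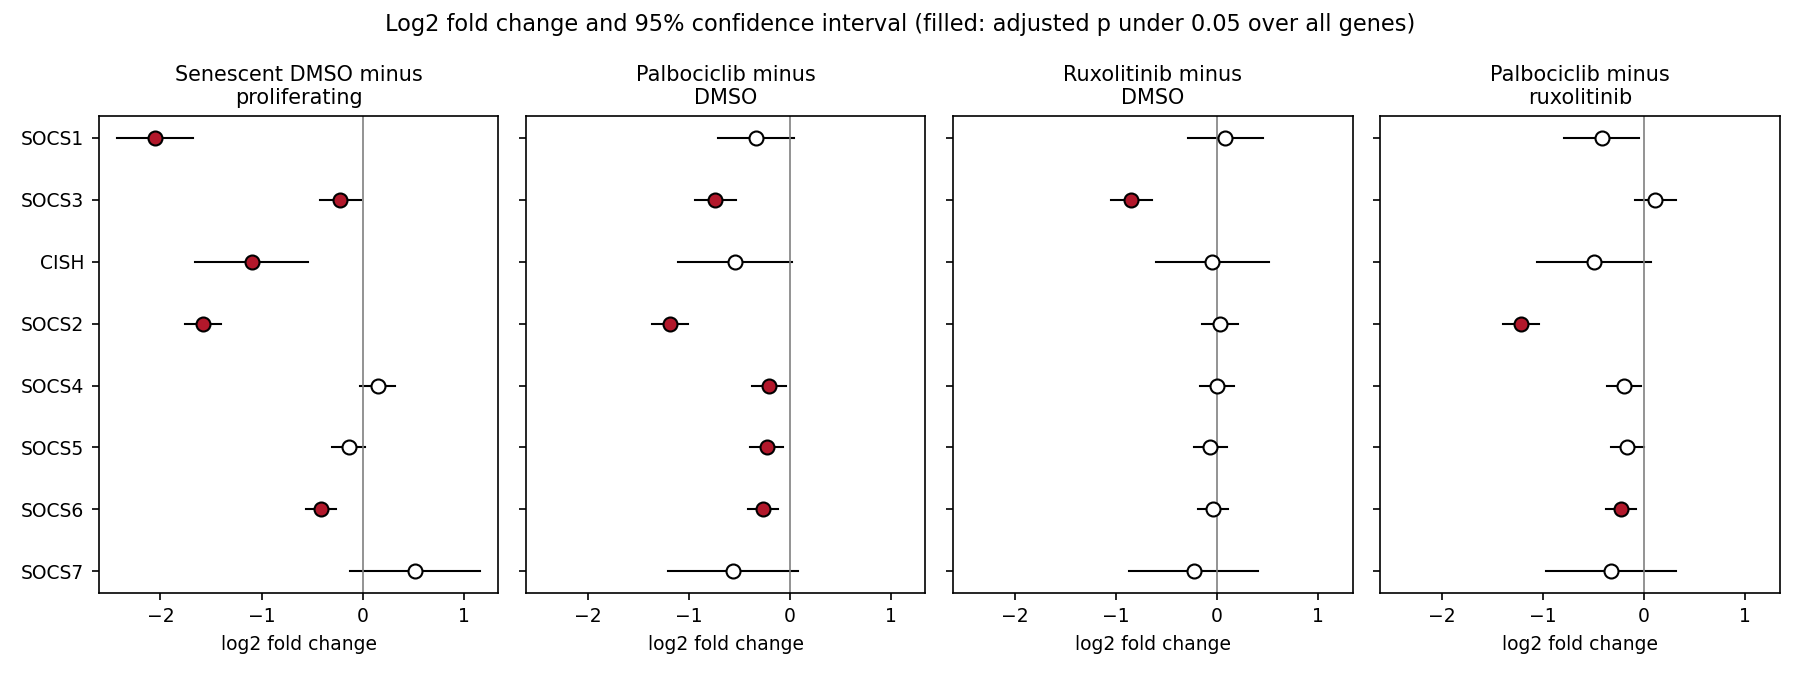
Log2 fold changes of the 8 members (log2 of normalized count + 1) with 95% intervals. Panels show DMSO against proliferating cells, each inhibitor against DMSO, and palbociclib against ruxolitinib. Filled points have an adjusted p under 0.05. SOCS2 lies at -1.58 between DMSO and proliferating cells, at -1.19 between palbociclib and DMSO and at 0.03 between ruxolitinib and DMSO, while SOCS3 lies at -0.22, -0.74 and -0.85.

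Across groups, 6 of 8 members did not overlap between DMSO and proliferating libraries, where 75.1% of all tested genes did not. The count was 5 of 8 between palbociclib and DMSO (54.8% of all genes) and 1 of 8 between ruxolitinib and DMSO (31.9%). Between palbociclib and ruxolitinib 3 of 8 did not overlap, against 51.8% of all genes, and 2 of 8 were called lower, SOCS2 and SOCS6. In that comparison 40.4% of all genes were called, 17.6% lower and 22.8% higher. Without library A119 the count was 5, with CISH (-0.83, limma adjusted p = 0.00988), SOCS4 (-0.28, adjusted p = 0.00692) and SOCS5 (-0.24, adjusted p = 0.0169) also lower, and without A123 it was 1. SOCS1 differed by -0.42 (95% interval -0.79 to -0.05, limma adjusted p = 0.0681) and was called without A120 (-0.52, adjusted p = 0.0442). The family's share of called or separated members was thus close to that of all genes in the comparison with proliferating cells, where most genes differed.

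Set against proliferating cells, the treated groups had the same 6 members called lower. With palbociclib 6 of 8 members were called lower and 0 higher, against 73.8% of all genes called (38.6% lower, 35.2% higher), and 6 of 8 did not overlap (70.9% of all genes). With ruxolitinib 6 of 8 were called lower and 0 higher, against 72.2% of all genes (39.5% lower, 32.6% higher), and again 6 of 8 did not overlap (76.2%). These members were SOCS1, SOCS2, SOCS3, SOCS5, SOCS6 and CISH. SOCS2 lay lowest with palbociclib, at -2.76 (SE 0.08, limma adjusted p = 1.22e-13), and SOCS1 at -2.39 (SE 0.18, limma adjusted p = 5.10e-09). With ruxolitinib SOCS3 was at -1.07 (SE 0.10, limma adjusted p = 5.99e-08). The SOCS5 call with ruxolitinib (-0.20, limma adjusted p = 0.0258) was kept in 8 of 19 alternatives. It was lost in the others, among them those without A122, A124 or A127 and the same total, where the difference was 0.00. SOCS4 was 0.14 above proliferating cells with ruxolitinib (limma adjusted p = 0.118) and was called higher under the 3 other scalings (0.32 to 0.35), in edgeR and DESeq2 (0.20 each) and without A127 (0.20, limma adjusted p = 0.0478).

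Length was taken as the union of all annotated exons of a gene, for example 5056 bases for CISH. This union can exceed the expressed transcript, so levels of different members compare only roughly. Per kilobase of exon, the summed level of the family was 1097 ± 7.83 normalized counts per kb in proliferating cells (SD, n = 3). It was 776 ± 39.8 with DMSO, 678 ± 8.22 with ruxolitinib and 579 ± 15.6 with palbociclib. These family sums use the deposited scaling alone and were not computed at the same total. In that scaling all genes summed to means of 19409359 (proliferating), 16554893 (DMSO), 16844894 (ruxolitinib) and 19369896 (palbociclib). In proliferating cells SOCS3, SOCS2 and SOCS5 stood close together at the top, at 229 ± 11.3, 219 ± 11.4 and 212 ± 16.9 normalized counts per kb. With DMSO, SOCS3 (197 ± 16.0) and SOCS5 (193 ± 15.1) were the most abundant, and SOCS2 had 73.2 ± 6.57. With ruxolitinib SOCS5 led at 184 ± 5.24 and SOCS3 had 109 ± 7.01. SOCS1, CISH and SOCS7 had 28.7, 5.04 and 2.53 per kb in the same group.

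The make-up of the family pool shifted with the groups. SOCS2 made up 19.9% ± 1.16 of the summed level per kb in proliferating cells, 9.43% ± 0.744 with DMSO, 11.0% ± 0.509 with ruxolitinib and 5.56% ± 0.647 with palbociclib. SOCS3 made up 20.9% ± 1.06, 25.3% ± 0.911, 16.1% ± 1.00 and 20.5% ± 3.18 in the same order. SOCS1 went from 10.5% ± 1.72 in proliferating cells to 3.52% ± 0.546 with DMSO. SOCS4, SOCS5 and SOCS6 each had a larger mean share in every irradiated group than in proliferating cells, with SOCS5 at 28.4% ± 1.88 with palbociclib against 19.3% ± 1.40 in proliferating cells. These shares are descriptions, since a fall of 1 member raises the share of the others.

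The rest of the JAK-STAT pathway was read from lists of its parts. Counts in these lists stand against 72.4% of all tested genes called between DMSO and proliferating cells. That share was 48.3% between palbociclib and DMSO and 4.52% between ruxolitinib and DMSO. With irradiation and DMSO, 5 of the 6 STAT factors reported were called higher and 1 lower, with a list median of 0.63, and 3 were called higher after quantile normalization. STAT2, which acts downstream of type I interferon receptors, rose from 1259 ± 131 to 3485 ± 200 normalized counts (log2 1.47, SE 0.08, limma adjusted p = 1.27e-10). STAT5B, a main inducer of CISH and SOCS2, was the called-lower member at -0.79 (SE 0.07, limma adjusted p = 8.65e-08). STAT5A, the other STAT5 gene, was called higher (0.32, limma adjusted p = 0.0258). Between palbociclib and DMSO, STAT5B differed by -0.05 (limma adjusted p = 0.583) and STAT5A by -0.37 (limma adjusted p = 0.0173). The STAT5A call was lost in 4 of 19 alternatives, over which the difference ranged from -0.60 to -0.14. At the same total both genes were called lower, as were 6 of 6 STAT factors. The part of either gene in the CISH and SOCS2 differences was not tested. Of the interferon targets 9 of 11 tested were called higher and 1 lower, with MX1, an antiviral GTPase, going from 24.9 ± 4.60 to 2477 ± 42.6. SOCS1, which interferons induce, was called lower in the same comparison, and a link to these targets was not tested.

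Upstream, 4 of 5 tested gp130 cytokines were called higher and 1 lower between DMSO and proliferating cells. IL6 rose by 2.02 (SE 0.13, limma adjusted p = 1.00e-09) and LIF by 1.89 (SE 0.08, limma adjusted p = 4.98e-12). Of 17 tested cytokine receptors 10 were called higher and 0 lower. Higher were PRLR (2.26) and GHR (2.18), the prolactin and growth hormone receptors that CISH and SOCS2 restrain, and IL6R (2.01), among others. GHR averaged 8.71 ± 3.04 normalized counts in proliferating cells, and passed the minimum of 10 only through the irradiated groups. Its difference ranged from 1.38 to 2.42 in the alternatives. SOCS3, the gp130 inhibitor, was not called higher in any analysis of this comparison.

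Of the 4 Janus kinases 1 was called higher and 1 lower. JAK3, the kinase of the common gamma chain, rose from 22.6 ± 0.772 to 48.0 ± 6.77 normalized counts (1.04, limma adjusted p = 9.26e-05). Its difference ranged from 0.45 to 1.26 in the alternatives. JAK1 was at -0.23 (limma adjusted p = 0.00837), which was 0.00 at the same total and 0.03 after quantile normalization. Among 11 tested inhibitors of the pathway outside the family, 3 were called higher and 6 lower, a split that was 4 and 1 at the same total. USP18, which blocks the type I interferon receptor, rose by 2.67 (SE 0.21, limma adjusted p = 1.54e-08), and the phosphatase gene PTPN2 fell by 0.59 (SE 0.09, limma adjusted p = 3.10e-05). Of 7 ligase partners of the SOCS box 1 was called higher, RNF7 (0.54), and 2 lower, RBX1 (-0.61) and CUL5 (-0.27). The CUL5 call was lost under each of the 3 other scalings, with -0.04 at the same total (limma adjusted p = 0.682), where 4 partners were called higher and 1 lower. In the deposited scaling, STAT3 and STAT5 targets were divided, with 6 of 12 higher and 3 lower. Cyclin D1 (CCND1) was at 1.75, PIM1 at -1.53 and BCL3 at -1.21. Under the 3 other scalings 8 to 9 of these targets were called higher, and 3 stayed lower.

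**Figure D3:**
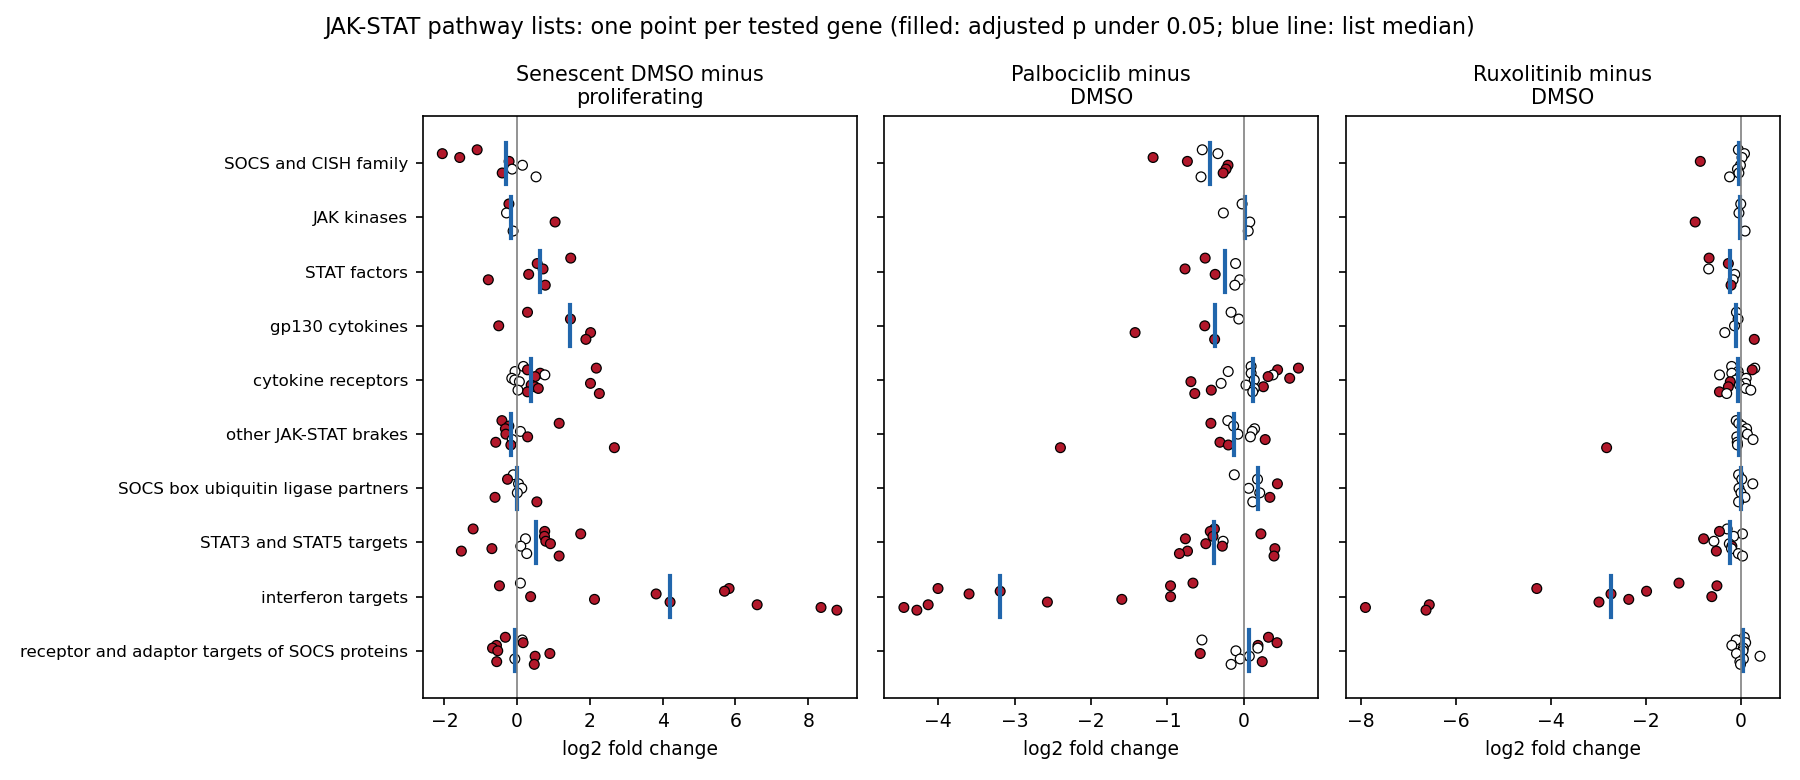
Log2 fold changes of the tested genes of the family and of 9 pathway lists, 1 point per gene, for DMSO against proliferating cells and for each inhibitor against DMSO. Filled points have an adjusted p under 0.05, the blue line is the list median, and the x axes differ between panels. OAS1 and OAS2 are at or near 0 in some groups, so the place of their points depends on the pseudocount. The interferon targets have a median of 4.20 after irradiation, -3.19 with palbociclib and -2.73 with ruxolitinib, and the family has -0.32, -0.44 and -0.04.

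With ruxolitinib, 11 of 11 interferon targets and 3 of 6 STAT factors were called lower than with DMSO, and 0 of either higher. The 11 include OAS1 and OAS2, which passed the minimum for testing mainly through the DMSO group. The STAT2 call held in 19 of 19 alternatives. The STAT3 call was lost in 5 of 19, among them those without A117, A118, A122 or A124 (adjusted p up to 0.0731), and the STAT6 call in 7 of 19, among them those without A117, A118, A122, A123 or A124 (adjusted p up to 0.163). STAT2 fell by 0.66 (SE 0.08, limma adjusted p = 5.27e-05), to 2198 ± 46.5 normalized counts, and MX1 fell by 6.56 (SE 0.21, limma adjusted p = 1.72e-11). Of 12 STAT3 and STAT5 targets 4 were called lower and 0 higher, with CEBPD at -0.78 (limma adjusted p = 0.00422), PIM1 at -0.51 (adjusted p = 0.00286) and BCL6 at -0.44 (adjusted p = 0.000357). Among the other inhibitors of the pathway, USP18 was the 1 of 11 called lower (-2.82, SE 0.21, limma adjusted p = 2.15e-07). The called-lower receptors included OSMR, which pairs with gp130 (-0.45, limma adjusted p = 0.00682). SOCS3 in the family, USP18 among the other inhibitors and JAK3 among the kinases (-0.96, limma adjusted p = 0.00543) were thus the called genes in their lists.

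With palbociclib, 11 of 11 interferon targets, OAS1 and OAS2 again included, and 3 of 6 STAT factors were called lower. STAT2 was at -0.50 (SE 0.08, limma adjusted p = 8.81e-05). At the same total 6 of 6 STAT factors were called lower. Of 5 gp130 cytokines 3 were called lower and 0 higher, with IL6 falling from 614 ± 52.6 to 229 ± 31.5 normalized counts (log2 -1.42, SE 0.13, limma adjusted p = 3.30e-07) and LIF at -0.38 (limma adjusted p = 0.000782). STAT3 and STAT5 targets had 8 of 12 called lower and 3 higher, with PIM2 at -0.84, CEBPD at -0.76 and PIM1 at -0.74. The higher calls depended on the scaling, with 9 lower and 0 higher at the same total and 1 higher after quantile normalization. Receptors were mixed, with 5 of 17 higher and 3 lower and a median of 0.12, and this turned to 2 higher and 5 lower with a median of -0.11 at the same total. GHR was called higher (0.72, limma adjusted p = 0.0238) and PRLR lower (-0.64, limma adjusted p = 0.0250), and each of these calls was lost in 6 of the alternatives. Of the 11 other inhibitors 4 were called lower and 1 higher, with USP18 at -2.40, and at the same total 8 were lower and 0 higher. The ligase partners had 2 of 7 higher, ELOB (0.44) and RBX1 (0.34), which became 0 higher and 1 lower at the same total.

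Among the receptors and adaptors that SOCS proteins act on, 4 of 11 were called higher and 5 lower between DMSO and proliferating cells. Over all tested genes 72.4% were called in that comparison. The insulin receptor gene INSR (-0.68) and IGF1R (-0.57) fell, and IRS2, a substrate of both, rose by 0.90. With palbociclib 4 of 11 were called higher and 1 lower, where 48.3% of all tested genes were called. At the same total this turned to 2 higher and 5 lower. IRS2 fell by 0.57 with palbociclib and ERBB2 rose by 0.44. With ruxolitinib 0 of 11 were called in either direction.

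The genes with the most similar profile to each member were found by Pearson correlation of log2(value + 1) over the 12 libraries, among 9960 genes with a mean of at least 50. The libraries share 4 groups, so r mainly reflects group means and is a description. For SOCS2 they were APOBEC3B (r = 0.997), NEURL1B (0.996) and SPIN4 (0.995). For SOCS1 they were NXT1, ARHGEF1 and DUS3L (each 0.994). For SOCS3 they were CASP4 (0.966), PNPT1 (0.962) and ANPEP (0.939), and PNPT1 had group means of 919.6 (proliferating), 824 (DMSO), 535 (palbociclib) and 478 (ruxolitinib). For SOCS6 they were ADNP (0.991), ATP2B1 (0.986) and GUF1 (0.986). For SOCS4 they were FAM168A (0.983), CDK12 (0.980) and MYSM1 (0.970), and for SOCS5 MYNN (0.959), INTS4 (0.958) and USP8 (0.953).

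Scaling of the libraries bore on the sign and the call of small differences more than on those of large ones. Scaling to the same total moved the median gene by 0.23 between DMSO and proliferating cells and by -0.23 between palbociclib and DMSO. The share of higher genes among calls went from 45.7% to 64.0% in the first comparison and from 53.9% to 15.4% in the second. Under the 3 other scalings SOCS1 remained between -2.20 and -1.83 and SOCS2 between -1.45 and -1.35 in the first comparison. SOCS3 remained between -0.87 and -0.83 between ruxolitinib and DMSO. SOCS3, SOCS5 and SOCS7 changed sign in at least 1 scaling of the first comparison.

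**Figure D4:**
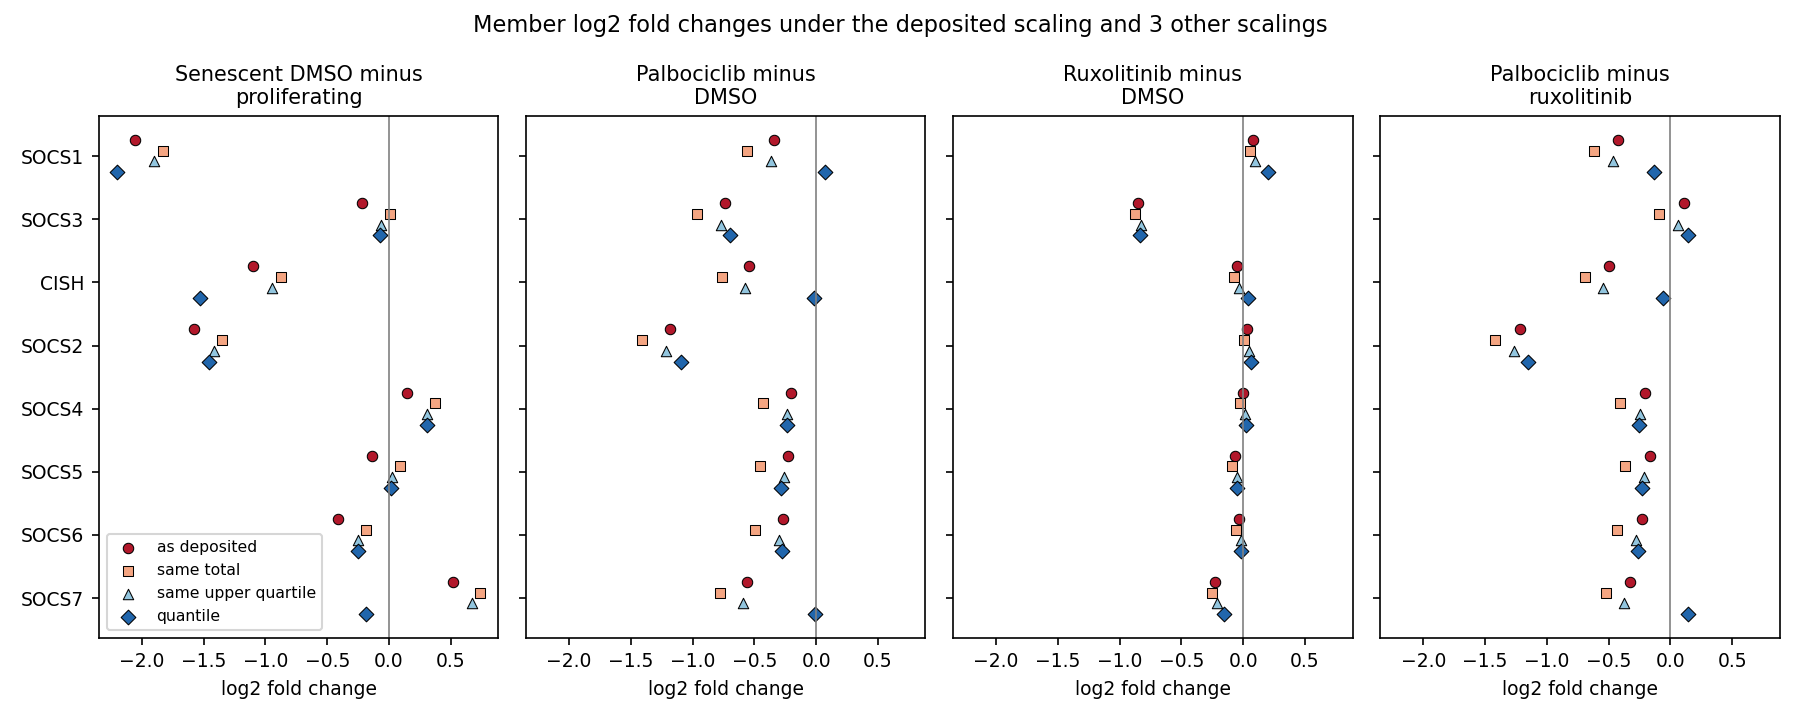
Log2 fold changes of the 8 members under the deposited scaling and 3 other scalings (same total, same upper quartile, quantile), in 4 comparisons. The markers of SOCS2 lie left of 0 in every panel but that of ruxolitinib against DMSO, where they lie close to 0, and those of SOCS3 between ruxolitinib and DMSO lie together near -0.85.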

How the data were processed

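Poly(A) RNA of 12 libraries was sequenced. Per the submitters' processing notes, the tools were Trimmomatic 0.38.1, HISAT2 2.2.1, featureCounts 2.0.3 and DESeq2 2.11.40.8, with FastQC 0.74 and MultiQC, and the build was hg38 (GRCh38). The authors deposited normalized counts per gene (unit: signal, at least 0). All 160380 values above 0 (100%) were whole multiples of 1 read's value in their library (tolerance 0.01), which gave whole reads. In library A116 a read was worth 0.990, too close to 1 for that column alone to show it. The table was sorted by Entrez number and ended at 140467, so genes beyond were not analysed here. Columns carried the group and a library number but no replicate number, and were assigned to groups only.

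limma 3.58.1 (R 4.3.3) was fitted to log2(value + 1) with 4 group means over 12 libraries, for the 11242 genes with a mean of at least 10, with variance following the mean and Benjamini-Hochberg adjustment over all of them. Fold changes on this scale understate changes of low genes. The script was tested on simulated data. Unless another tool is named, every adjusted p is from limma. On recovered reads, edgeR 4.0.16 and DESeq2 1.42.0 were run as alternatives. Others were pseudocounts of 0.1 and 5, no filter, a mean of at least 50, 3 scalings, no trend, 2 groups only, an adjusted p under 0.01, and each library left out. Named genes are the 8 members, up to 3 called genes per list and comparison with the largest change, and the 3 most correlated genes per member with a mean of at least 50. STAT5A and STAT5B are also given side by side outside this rule. OAS1 and OAS2, at or near 0 in some groups, passed the minimum of 10 mainly through the DMSO group. They are counted in their list without a fold change. IL27, UBE2F and PIM3 were not analysed here, and 1 gene of the STAT list is not reported here. The members and lists were chosen with earlier results of these data known. Gene positions and exon lengths are from GENCODE v44, promoters from RefSeq.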

Additional observations from a re-analysis of the deposited data

How the results depend on the processing

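No paired analysis was possible because the columns carry no replicate numbers. Over the 8 members and 6 comparisons, 795 values kept their direction and side of the threshold under the alternatives, 36 passed it newly, 39 no longer passed and 30 changed sign. A mean of at least 50 gave no value for CISH and SOCS7. The cause of these changes was not tested, apart from the threshold of 0.01, which is stricter by construction. Members called between palbociclib and DMSO numbered 5, and 8 at the same total, 3 at an adjusted p under 0.01 and 3 to 6 with 1 library left out (3 without A117, A118, A120 or A121). Between palbociclib and ruxolitinib they numbered 2, and 6 at the same total, 5 at the same upper quartile, 4 after quantile normalization, 1 at an adjusted p under 0.01, and 1 to 5 with 1 library left out (1 without A123, 5 without A119). Counts in the other 4 comparisons stayed within 1.5 times, with higher and lower calls counted together. Counts of 10 to 69 reads limit SOCS7, CISH and, in irradiated cells, SOCS1. Genes called between ruxolitinib and DMSO numbered 508 in limma, 556 in edgeR, 651 in DESeq2 and 1841 when only these 2 groups were fitted.

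Of the values that changed sign, those of SOCS3 and JAK1 between DMSO and proliferating cells and of SOCS5 between ruxolitinib and proliferating cells had been called, and the others had not. As log2 differences at the same total, SOCS3 was 0.00723, SOCS5 0.0915 and JAK1 0.00328 between DMSO and proliferating cells, SOCS3 was -0.0899 between palbociclib and ruxolitinib, and SOCS5 was 0.00029 between ruxolitinib and proliferating cells. At the same upper quartile, SOCS5 was 0.0212 between DMSO and proliferating cells, SOCS4 was 0.0138 between ruxolitinib and DMSO, and SOCS4 was 0.0692 and SOCS7 0.0819 between palbociclib and proliferating cells. After quantile normalization, SOCS5 was 0.0131, SOCS7 -0.183 and JAK1 0.0252 between DMSO and proliferating cells, and SOCS1 was 0.0687 between palbociclib and DMSO. In the same setting, CISH was 0.0378 and SOCS4 0.0184 between ruxolitinib and DMSO, SOCS7 was 0.143 between palbociclib and ruxolitinib, SOCS4 was 0.0727 between palbociclib and proliferating cells, and SOCS7 was -0.339 between ruxolitinib and proliferating cells. In edgeR, SOCS4 between ruxolitinib and DMSO was 0.00191 with TMM factors and 2e-05 with DESeq2 size factors. With 1 library left out, values between ruxolitinib and DMSO ranged from -0.0259 to 0.224 for SOCS1, from -0.16 to 0.0389 for CISH, from -0.00729 to 0.103 for SOCS2 and from -0.0179 to 0.0198 for SOCS4. Between palbociclib and proliferating cells they ranged from -0.141 to 0.0122 for SOCS4 and from -0.376 to 0.144 for SOCS7, and between ruxolitinib and proliferating cells from -0.0497 to 0.470 for SOCS7.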
